A study of Mus musculus with 6 samples.

Results

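The genes described here encode 10 proteins of the cardiac Z-disc and of the response of heart muscle to mechanical stress, namely *Actn2*, *Ldb3*, *Myoz2*, *Tcap*, *Csrp3*, *Fhl1*, *Fhl2*, *Ankrd1*, *Xirp1*, and *Xirp2*. They were chosen by gene name out of 56923 genes counted, and all 10 passed the filter on low counts that left 17212 genes for testing. The mRNA-Seq compared the left ventricles (LVs) of 3 heterozygous *Lztr1* R409C/+ mice, labelled as mutant, with those of 3 WT mice, 1 library per mouse, at 12 weeks of age. The *Lztr1* R409C allele is a knock-in made with CRISPR/Cas9 and carried in every cell of the mouse. The C57BL/6J background was reached by backcrossing for more than 8 generations. *Lztr1* encodes an adaptor of a ubiquitin ligase that lowers the level of RAS proteins. The study's methods state that male mice were used, and the sample labels give no sex. The labels call the tissue heart. The methods describe LVs from mice perfused with saline.

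The Z-disc is the protein lattice that borders each sarcomere, the contractile unit of muscle. It anchors the thin filaments of neighbouring sarcomeres and also holds proteins that respond to stretch. α-Actinin 2, the product of *Actn2*, cross-links actin there, and the products of *Ldb3*, *Myoz2*, *Tcap*, and *Csrp3* bind to α-actinin, titin, or each other. Mutations in several of these genes cause cardiomyopathy in patients. *Ankrd1* is a classic marker of hypertrophy and wall stress, and its product shuttles between the sarcomere and the nucleus.

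Total counts lay between 66130887 and 72641124 per mouse. Over the 10 genes and 6 mice, the lowest count was 4453, for *Xirp1* in *Lztr1* R409C/+ replicate 1, for which counting error would be 1.5% of the value if the deposited counts are whole reads. How they were derived from StringTie is not given in the sources used here. A pair of libraries stood apart. The share of counts from genes of the mitochondrial genome was 13.8% in WT replicate 3 and 45.4% in *Lztr1* R409C/+ replicate 1, against 29.7% to 37.3% in the other 4 mice. Values of single mice are given in the order of replicates 1, 2, and 3. Levels are given as CPM, counts scaled to a common library size, with TMM normalization, which sets the libraries to a common scale through the bulk of genes. The labelled tissue was checked against marker genes. All 9 cardiomyocyte markers, such as *Myh6* and *Tnnt2*, were tested, with a summed level between 31675 CPM and 46061 CPM per mouse, whereas 4 atrial markers reached at most 107.0 CPM together and 7 skeletal muscle markers at most 1.7 CPM. *Lztr1* itself was at 24.2, 24.2, and 22.2 CPM in WT LVs and at 23.9, 27.9, and 25.3 CPM in R409C/+ LVs. A missense allele need not change the level of its mRNA, so this gene does not check the genotype labels.

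Per kilobase of exon, *Tcap* was the most abundant of the 10 mRNAs in WT LVs, at 269.0 ± 74.1 CPM per kb (SD, n = 3). It encodes telethonin, which caps the end of titin at the Z-disc. *Ankrd1* followed with 178.6 ± 51.6 CPM per kb (SD, n = 3), then *Actn2* with 138.6 ± 13.3 CPM per kb (SD, n = 3) and *Csrp3* with 129.7 ± 8.38 CPM per kb (SD, n = 3). A middle tier held *Ldb3* at 66.6 ± 10.96, *Fhl2* at 60.1 ± 6.03, and *Myoz2* at 51.8 ± 8.07 CPM per kb (SD, n = 3 for each). At the bottom stood *Fhl1* at 26.1 ± 0.897, *Xirp2* at 25.6 ± 5.04, and *Xirp1* at 22.7 ± 5.51 CPM per kb (SD, n = 3 for each). Within each of these 3 tiers, neighbours in the order overlapped between WT mice, and between the tiers they did not. The tiers held in *Lztr1* R409C/+ mice by their means, with *Csrp3* at 159.6 ± 7.95 CPM per kb ahead of *Actn2* at 116.4 ± 18.3 CPM per kb (SD, n = 3 for each) and *Myoz2* first in the middle tier at 66.9 ± 6.3 CPM per kb (SD, n = 3). The length of the longest transcript in place of all exons raised *Fhl2* to 162.2 CPM per kb and placed it ahead of *Ldb3* in WT mice. By that length *Fhl2* overlapped neither *Csrp3* nor *Ldb3*, and *Fhl1* did not overlap *Xirp2*, so the tiers depend on the length used. Together the 10 genes took between 0.735% and 0.900% of the counts of genes not encoded in the mitochondrion.

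To show the sequence context of these genes, promoter windows of RefSeq (from its table on GRCm38.p6), from 250 bases before to 50 after a start site, were searched on both strands for motifs known from muscle genes. A window was found for 8 of the 10 genes. Each matched its GRCm39 chromosome at 1 place, and its position there is printed. The motifs were the M-CAT element CATTCC, bound by TEAD factors, the E-box CAGCTG, bound by basic helix-loop-helix factors, the GATA motif GATAA, the letters TATAAA, the CArG box, bound by serum response factor, and the MEF2 motif. The last pair were searched by their usual degenerate form. Windows are shown for *Ankrd1*, the stress marker, for *Myoz2*, which had the largest positive fold change of the 10, and for *Fhl1* and *Fhl2*, whose ratio separated the genotypes. They run 5′ to 3′ on the strand of the gene, and capitals mark the matches.
Ankrd1, chr19:36097195-36097494, minus strand: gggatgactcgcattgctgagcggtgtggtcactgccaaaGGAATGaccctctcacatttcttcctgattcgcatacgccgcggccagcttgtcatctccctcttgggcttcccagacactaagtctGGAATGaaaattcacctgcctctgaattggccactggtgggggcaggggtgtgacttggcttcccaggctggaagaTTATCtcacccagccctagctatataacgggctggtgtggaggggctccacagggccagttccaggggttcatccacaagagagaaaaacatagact
Myoz2, chr3:122828587-122828886, minus strand: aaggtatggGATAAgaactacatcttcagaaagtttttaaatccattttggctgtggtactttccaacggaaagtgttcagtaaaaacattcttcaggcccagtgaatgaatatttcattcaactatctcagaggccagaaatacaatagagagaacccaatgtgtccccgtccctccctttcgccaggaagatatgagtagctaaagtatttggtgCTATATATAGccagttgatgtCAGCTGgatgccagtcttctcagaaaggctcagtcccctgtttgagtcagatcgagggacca
Fhl1, chrX:55824793-55825092, plus strand: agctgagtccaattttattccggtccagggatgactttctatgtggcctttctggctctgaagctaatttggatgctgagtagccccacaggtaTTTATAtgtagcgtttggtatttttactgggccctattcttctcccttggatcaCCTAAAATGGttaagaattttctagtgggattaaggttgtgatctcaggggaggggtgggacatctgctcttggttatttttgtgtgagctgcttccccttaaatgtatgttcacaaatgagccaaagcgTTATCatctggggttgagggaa
Fhl2, chr1:43235872-43236171, minus strand: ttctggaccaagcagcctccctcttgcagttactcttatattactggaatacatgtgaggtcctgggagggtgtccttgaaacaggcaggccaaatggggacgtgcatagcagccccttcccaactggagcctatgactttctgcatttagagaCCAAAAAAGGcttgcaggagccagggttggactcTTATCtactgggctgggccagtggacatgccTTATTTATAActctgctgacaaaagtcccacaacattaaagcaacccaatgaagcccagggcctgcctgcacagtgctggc
In the *Ankrd1* window, M-CAT matched at 2 places, both on the opposite strand as GGAATG, beginning at -210 and -123 relative to the start. CATTCC was present in 14.7% of all 32851 windows. *Fhl1*, *Fhl2*, and *Ldb3* each held a CArG box (CCTAAAATGG, CCAAAAAAGG, and CCATTTATGG), which 1.63% of all windows held. The MEF2 motif was in the windows of *Myoz2*, *Fhl2*, and *Xirp2* (CTATATATAG, TTATTTATAA, and CTAAAAATAG), against 3.19% of all windows. TATAAA, in 13.6% of all windows, matched in *Fhl1* and *Fhl2*, in the latter within the MEF2 match. GATAA matched in *Ankrd1*, *Myoz2*, *Fhl1*, and *Fhl2* and in 25.4% of all windows, and CAGCTG matched in *Myoz2* and in 16.3%. *Csrp3* and *Actn2* held none of these letters in their windows. The windows of *Ankrd1*, *Fhl2*, and *Actn2* were set around RefSeq starts 262, 369, and 430 bases from the start of the gene's main transcript in GENCODE. Each of these windows lies wholly downstream of that GENCODE start. The RefSeq starts of the other 5 genes lay within 102 bases of the GENCODE start. A match describes letters in a window and shows no binding.

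The first question was whether the mutation changed the level of any of these mRNAs. With p-values from the quasi-likelihood test of edgeR, adjusted over all 17212 genes by the Benjamini-Hochberg method, 0 of the 10 passed the threshold of 0.05. Of all genes tested 0.0407% passed it, 0.0349% higher and 0.00581% lower in *Lztr1* R409C/+ mice. The smallest adjusted p was 0.587 (edgeR), for *Myoz2*. At an unadjusted p under 0.05, edgeR called 0 of the 10, against 8.63% of all genes. DESeq2 called 1 at that level, *Myoz2*, against 9.2% of all genes, and edgeR's exact test called 0, against 9.06%. Under other settings edgeR called 2 with upper quartile scaling (*Csrp3* and *Myoz2*, against 8.6%), 1 with at least 10 counts in every mouse (*Myoz2*, against 9.28%), 1 after a correction for gene length (*Fhl1*, against 8.26%), and 2 without both WT replicate 3 and *Lztr1* R409C/+ replicate 1 (*Csrp3* and *Fhl2*, against 8.5%). Fold changes, always of *Lztr1* R409C/+ over WT, ran from -0.27 to 0.37 on the log2 scale, with 4 genes higher and 6 lower and a median of -0.022, beside a median of 0.012 and 48.6% lower over all genes. For 3 of the 10 genes the CPM of the genotypes did not overlap, *Csrp3* and *Myoz2* higher and *Fhl1* lower. Among all genes 15.5% did not overlap, 8.3% higher and 7.23% lower. With library size in place of TMM, the genotypes overlapped for all 10. All p-values rest on the differences between these 6 mice, and edgeR estimates the spread of each gene with the help of all genes tested.

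**Figure D1:**
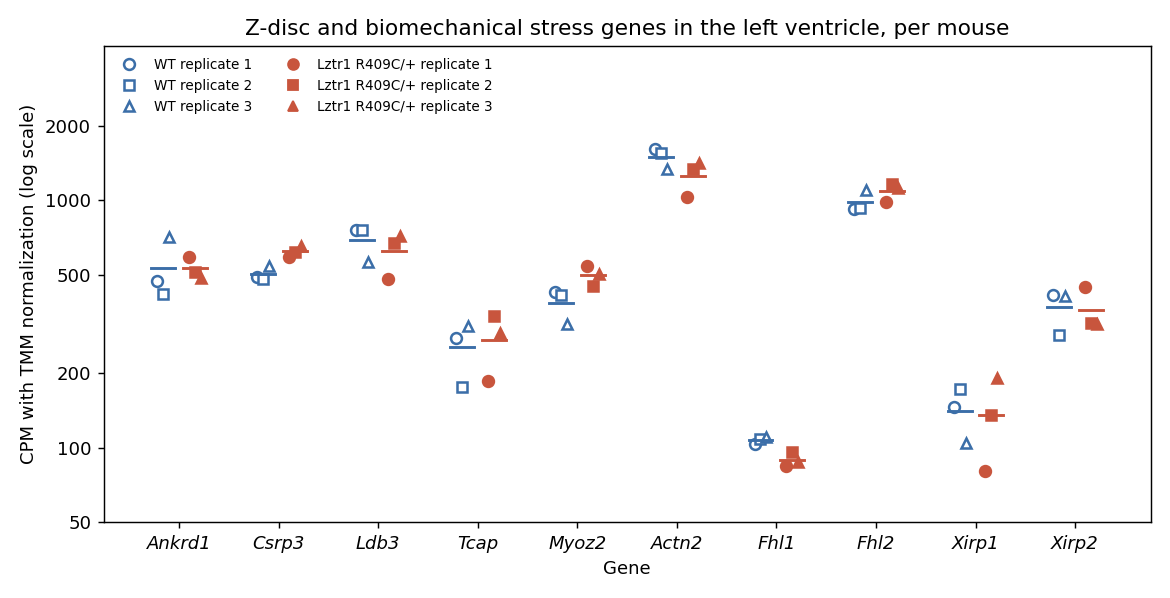
CPM with TMM normalization (log axis) of the 10 genes in each of 3 WT mice (open symbols) and 3 Lztr1 R409C/+ mice (filled symbols), with lines at the group means and symbol shapes for the replicate number. Every Lztr1 R409C/+ mouse lies above every WT mouse for Csrp3 (at least 590.7 against at most 541.6 CPM) and Myoz2, below every WT mouse for Fhl1, and the groups overlap for the other 7 genes.

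Of the structural core of the Z-disc, *Actn2* (ENSMUSG00000052374.17, chromosome 13 of GRCm39, 12281303 to 12356693, minus strand) had 1610.0, 1546, and 1335 CPM in WT LVs. In R409C/+ LVs it had 1034, 1331, and 1408 CPM. *Lztr1* R409C/+ replicate 1 was the lowest of the 6 mice, and the groups overlapped through *Lztr1* R409C/+ replicate 3 and WT replicate 3. The log2 fold change was -0.25 (standard error 0.19, 95% interval -0.67 to 0.16, edgeR, adjusted p = 0.757), and -0.14 without *Lztr1* R409C/+ replicate 1. *Ldb3* (ENSMUSG00000021798.15, chromosome 14, 34248056 to 34312351, minus strand), which encodes the PDZ and LIM protein ZASP or Cypher, had 760.4, 755.3, and 560.5 CPM in WT LVs and 480.8, 668.8, and 716.3 CPM in R409C/+ LVs. Again *Lztr1* R409C/+ replicate 1 was lowest, and the groups overlapped. Its log2 fold change was -0.15 (standard error 0.20, 95% interval -0.59 to 0.28, edgeR, adjusted p = 0.867). Without *Lztr1* R409C/+ replicate 1 it came to -0.0062 and without WT replicate 3 to -0.29, the ends of its range when each mouse was left out in turn. It was also nearer 0 without WT replicate 1 (-0.081) or WT replicate 2 (-0.089) and farther from it without *Lztr1* R409C/+ replicate 3 (-0.27).

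*Myoz2* (ENSMUSG00000028116.14, chromosome 3, 122797610 to 122828664, minus strand) encodes calsarcin 1, which ties the phosphatase calcineurin to α-actinin. It stood at 426.1, 414.6, and 316.8 CPM in WT LVs and at 544.0, 450.2, and 501.3 CPM in R409C/+ LVs. Every *Lztr1* R409C/+ mouse was above every WT mouse, by 24.1 CPM between the closest pair, with WT replicate 3 lowest and *Lztr1* R409C/+ replicate 1 highest. The means were 385.8 ± 60.1 and 498.5 ± 46.9 CPM (SD, n = 3 in each group). This gave a log2 fold change of 0.37 (standard error 0.17, 95% interval -0.0078 to 0.75, edgeR, unadjusted p = 0.0542 and adjusted p = 0.587), the largest positive one of the 10. It was 0.24 without WT replicate 3 and also with library size only, and 0.18 without both WT replicate 3 and *Lztr1* R409C/+ replicate 1. *Tcap* (ENSMUSG00000007877.3, chromosome 11, 98274637 to 98275779, plus strand) ranged widely within both groups, with 277.2, 176.3, and 311.4 CPM in WT LVs and 185.8, 340.7, and 291.1 CPM in R409C/+ LVs. One mouse of each group, WT replicate 2 and *Lztr1* R409C/+ replicate 1, lay well below the others. The log2 fold change was 0.096 (standard error 0.25, 95% interval -0.45 to 0.64, edgeR, adjusted p = 0.944). It was below 0 without WT replicate 2 (-0.12) or *Lztr1* R409C/+ replicate 2 (-0.10) and reached 0.30 without *Lztr1* R409C/+ replicate 1, so its direction rested on single mice. The other values were 0.16 without WT replicate 1, 0.26 without WT replicate 3, 0.046 without *Lztr1* R409C/+ replicate 3, and 0.48 without both WT replicate 3 and *Lztr1* R409C/+ replicate 1.

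Of the genes of LIM domain proteins, *Csrp3* (ENSMUSG00000030470.16, chromosome 7, 48480142 to 48497901, minus strand) encodes muscle LIM protein, a partner of telethonin and α-actinin. It had 491.7, 480.3, and 541.6 CPM in WT LVs and 590.7, 618.6, and 652.4 CPM in R409C/+ LVs. The lowest *Lztr1* R409C/+ mouse exceeded the highest WT mouse by 49.1 CPM, and the standard deviations were 32.6 and 30.9 CPM around means of 504.5 and 620.5 CPM (n = 3 in each group). This amounted to a log2 fold change of 0.30 (standard error 0.16, 95% interval -0.039 to 0.64, edgeR, unadjusted p = 0.078 and adjusted p = 0.623). With each mouse left out in turn, this value stayed between 0.26 and 0.35, but it was 0.13 with library size only and 0.17 after a correction for gene length. The two-sided exact permutation test gave p = 0.1 for *Csrp3*, as for *Myoz2* and *Fhl1*, the smallest that 3 mice against 3 allow.

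*Fhl1* and *Fhl2* encode proteins built of the same number of LIM domains. FHL1 takes part in stretch sensing at titin, and FHL2 binds metabolic enzymes, titin, and signaling proteins including ERK. *Fhl1* (ENSMUSG00000023092.17, chromosome X, 55777147 to 55838706, plus strand) had 103.1, 108.7, and 110.1 CPM in WT LVs and 84.1, 96.1, and 87.3 CPM in R409C/+ LVs. By TMM, all *Lztr1* R409C/+ mice were below all WT mice, and the WT mice were the closest to each other among the 10 genes, with a coefficient of variation of 3.43%. The log2 fold change was -0.27 (standard error 0.15, 95% interval -0.58 to 0.050, edgeR, unadjusted p = 0.0911 and adjusted p = 0.644). It was -0.43 with library size only and -0.38 after a correction for gene length. *Fhl2* (ENSMUSG00000008136.15, chromosome 1, 43162199 to 43236290, minus strand) had 924.9, 931.9, and 1100 CPM in WT LVs and 982.0, 1157, and 1118 CPM in R409C/+ LVs. The groups overlapped through WT replicate 3, and the log2 fold change was 0.14 (standard error 0.17, 95% interval -0.24 to 0.52, edgeR, adjusted p = 0.860). It was 0.22 without WT replicate 3, 0.085 without *Lztr1* R409C/+ replicate 2, and 0.29 without both WT replicate 3 and *Lztr1* R409C/+ replicate 1 (edgeR, adjusted p = 0.567). Its exons overlap those of *AI597479* on the opposite strand, which had at most 3379 counts in a mouse, against at least 54411 for *Fhl2*, and *Ankrd1* overlaps *Gm56671* there, with at most 270 counts. Whether the counting used strand is not given in the sources used here.

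Of the stress genes, *Ankrd1* (ENSMUSG00000024803.10, chromosome 19, 36089352 to 36097506, minus strand) had 471.2, 419.2, and 707.7 CPM in WT LVs and 590.6, 513.7, and 486.9 CPM in R409C/+ LVs. The highest of the 6 mice was WT replicate 3, and the *Lztr1* R409C/+ mice lay inside the range of the WT mice. The means were 532.7 ± 153.8 and 530.4 ± 53.8 CPM (SD, n = 3 in each group). The log2 fold change was -0.0063 (standard error 0.21, 95% interval -0.46 to 0.44, edgeR, adjusted p = 0.995). An interval of this width leaves room for changes of either direction, and without WT replicate 3, the library with the lowest mitochondrial share, the value was 0.25 (edgeR, adjusted p = 0.776, within 0.737 to 1 over all alternatives). It was also above 0 without *Lztr1* R409C/+ replicate 2 (0.0093) or replicate 3 (0.052). It was lower without WT replicate 1 (-0.087), WT replicate 2 (-0.16), or *Lztr1* R409C/+ replicate 1 (-0.099). With library size only it was -0.25.

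*Xirp1* and *Xirp2* encode actin-binding repeat proteins that stabilize filaments at the intercalated disc and gather at sites of sarcomere damage and remodelling. *Xirp1* (ENSMUSG00000079243.6, chromosome 9, 119842821 to 119852664, minus strand) varied most of the 10 genes, 2.39-fold from the lowest to the highest mouse. It had 146.0, 173.1, and 104.9 CPM in WT LVs and 80.4, 135.3, and 192.1 CPM in R409C/+ LVs, so that both extremes were *Lztr1* R409C/+ mice. The log2 fold change was -0.056 (standard error 0.28, 95% interval -0.67 to 0.56, edgeR, adjusted p = 0.973), and it ran from -0.39 without *Lztr1* R409C/+ replicate 3 to 0.20 without *Lztr1* R409C/+ replicate 1. It was 0.11 without WT replicate 2, -0.032 without WT replicate 1, and -0.23 without WT replicate 3. For *Xirp2* (ENSMUSG00000027022.15, chromosome 2, 67004178 to 67356962, plus strand) the values were 413.0, 286.1, and 411.7 CPM in WT LVs and 445.4, 319.7, and 316.4 CPM in R409C/+ LVs. WT replicate 2 was the lowest and *Lztr1* R409C/+ replicate 1 the highest. The log2 fold change of *Xirp2* was -0.039 (standard error 0.20, 95% interval -0.48 to 0.40, edgeR, adjusted p = 0.974). It lay between 0.035 and 0.047 without WT replicate 1, WT replicate 3, *Lztr1* R409C/+ replicate 2, or *Lztr1* R409C/+ replicate 3. It was -0.20 without WT replicate 2, -0.23 without *Lztr1* R409C/+ replicate 1, and -0.25 with library size only.

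**Figure D2:**
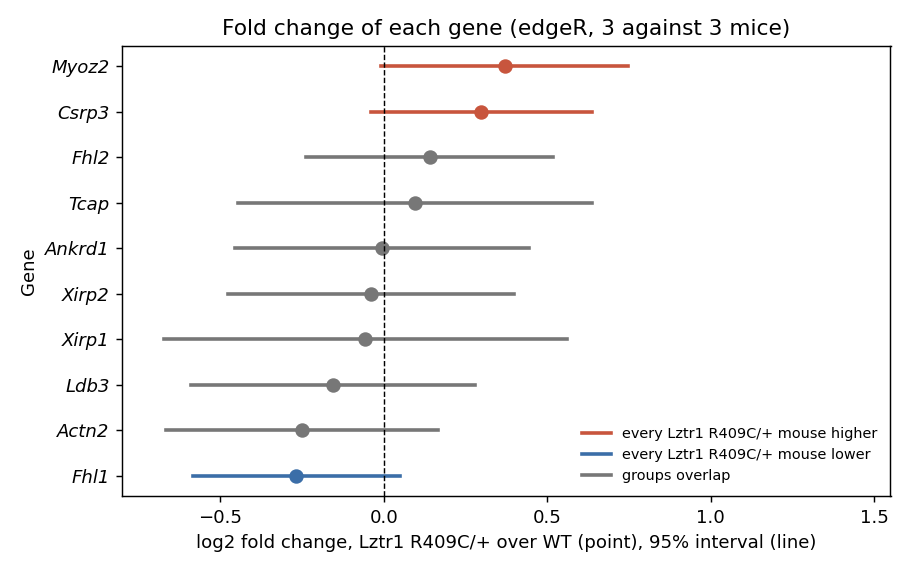
Log2 fold change of Lztr1 R409C/+ over WT mice (points) with 95% intervals (lines) from edgeR's quasi-likelihood fit, for the 10 genes in order of the fold change, with colour for genes whose CPM did not overlap between genotypes. All 10 intervals include 0, from Fhl1 at -0.27 to Myoz2 at 0.37.

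By TMM, the 10 genes did not all place the mice in the same order. *Lztr1* R409C/+ replicate 1 was the lowest of the 6 mice for *Ldb3*, *Actn2*, *Fhl1*, and *Xirp1* and the highest for *Myoz2* and *Xirp2*. WT replicate 2 was the lowest for 4 other genes, *Ankrd1*, *Csrp3*, *Tcap*, and *Xirp2*. With library size only the order differed, and WT replicate 3 was the highest for *Ankrd1*, *Csrp3*, *Tcap*, *Actn2*, *Fhl1*, *Fhl2*, and *Xirp2*. The lowest mouse for *Ldb3*, *Tcap*, *Actn2*, *Fhl1*, *Fhl2*, and *Xirp1* was then *Lztr1* R409C/+ replicate 1. *Lztr1* R409C/+ replicate 1 also had the highest mitochondrial share and the steepest relation of level to gene length. The change in log2 CPM for each doubling of length was 0.032, 0.054, and 0.018 in WT mice. It was -0.076, 0.011, and -0.039 in *Lztr1* R409C/+ mice, each below every WT mouse. The cardiomyocyte markers had their lowest sum in *Lztr1* R409C/+ replicate 1, 31675 CPM, against 39434 CPM to 46061 CPM in the other 5. How far these properties enter the values of the 10 genes was not tested. In whole tissue, fewer cardiomyocytes and less mRNA per cardiomyocyte cannot be told apart. The macrophage markers had a summed level of 107.8 CPM to 111.0 CPM in WT LVs and 178.9 CPM to 195.1 CPM in *Lztr1* R409C/+ mice and no overlap for 6 of 6 genes, against 8.3% of all genes higher without overlap. Of the 6, 1 passed the threshold by edgeR, *C1qb*, and the other 5 had adjusted p-values of 0.0985 to 0.457 (edgeR). *C1qb*, a complement component, had a log2 fold change of 1.15 (edgeR, adjusted p = 0.0241). The 5 erythroid markers were higher in mean as well, with sums of 578.8 CPM to 1479 CPM in WT and 1042 CPM to 2625 CPM in *Lztr1* R409C/+ mice that overlapped, and 0 passed the threshold by edgeR. The macrophage sums were far below those of the cardiomyocyte markers, and the part of either list in the values of the 10 genes was not tested.

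A ratio of 2 genes within a mouse does not depend on the scaling between libraries, and 4 such ratios were compared. The relation of level to gene length, which differed between the genotypes, can still enter a ratio. No ratio was computed after the length correction. The ratio of *Fhl1* to *Fhl2* on the log2 scale was -3.16, -3.10, and -3.32 in WT LVs and -3.55, -3.59, and -3.68 in R409C/+ LVs. It was lower in every *Lztr1* R409C/+ mouse, with means of -3.19 ± 0.11 and -3.61 ± 0.068 (SD, n = 3 in each group; exact permutation test, two-sided, p = 0.1, which 3 against 3 mice cannot go below, and 0.4 after Benjamini-Hochberg adjustment over the 4 ratios). The difference was -0.41, which amounts to 0.753 times the WT ratio, and with each mouse left out in turn it stayed between -0.47 and -0.36. The other 3 ratios overlapped between the genotypes. How often a ratio of 2 genes separates the genotypes over all pairs was not computed. For ratios to *Actn2*, 20.8% of all genes tested did not overlap. *Ankrd1* over *Actn2* differed by 0.29 on the log2 scale (exact permutation test, p = 0.5), *Xirp2* over *Actn2* by 0.22 (exact permutation test, p = 0.7), and *Csrp3* over *Tcap* by 0.21 (exact permutation test, p = 0.5). All of these moved by over 1.5 times when single mice were left out. *Ankrd1* over *Actn2* was 0.071 without *Lztr1* R409C/+ replicate 1, 0.16 and 0.11 without WT replicates 1 and 2, 0.59 without WT replicate 3, and 0.43 without *Lztr1* R409C/+ replicate 3. *Xirp2* over *Actn2* ran from -0.074 without *Lztr1* R409C/+ replicate 1 to 0.39 without *Lztr1* R409C/+ replicate 3, and *Csrp3* over *Tcap* from -0.011 without *Lztr1* R409C/+ replicate 1 to 0.42 without WT replicate 2. The WT values of *Ankrd1* over *Actn2* spanned -1.88 to -0.92 and the *Lztr1* R409C/+ values -1.53 to -0.81.

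Each gene was then set against *Actn2*, a comparison chosen after the data were seen. *Myoz2* over *Actn2* was -1.92, -1.90, and -2.07 in WT and -0.93, -1.56, and -1.49 in R409C/+ LVs, and *Csrp3* over *Actn2* was -1.71, -1.69, and -1.30 in WT and -0.81, -1.11, and -1.11 in R409C/+ LVs. For these 2 of 9 genes every *Lztr1* R409C/+ mouse was higher, and for 0 of 9 was every one lower. Because *Actn2* itself was lower in mean, 20.1% of all genes tested were higher than *Actn2* in this way without overlap, and 0.732% were lower, 20.8% together, so that 2 of 9 is near the share among all genes. *Ldb3* over *Actn2* stayed between -1.25 and -0.97 in all 6 mice, the narrowest span of the 9.

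**Figure D3:**
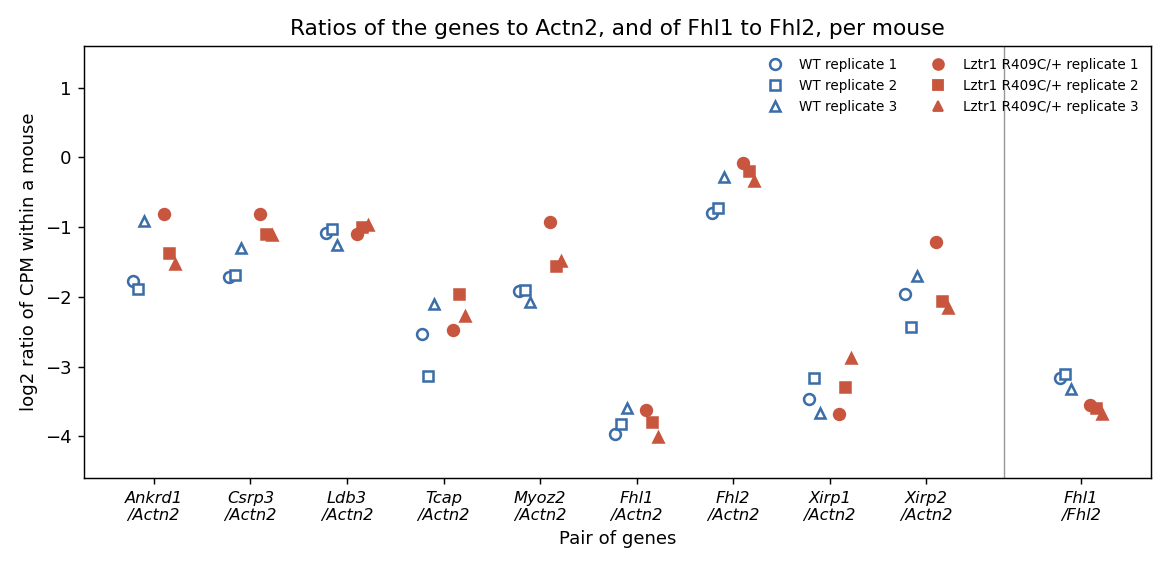
Log2 ratio of the CPM of each gene to that of Actn2, and of Fhl1 to Fhl2, within each of 3 WT mice (open symbols) and 3 Lztr1 R409C/+ mice (filled symbols). The Fhl1 to Fhl2 ratio lies between -3.68 and -3.55 in Lztr1 R409C/+ mice, below the WT range of -3.32 to -3.10, and Csrp3 and Myoz2 lie higher against Actn2 in every Lztr1 R409C/+ mouse.

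To place these genes among others of the Z-disc and of the stretch response, 3 further lists were examined. Of 18 relatives in the same gene families, 14 were tested. *Fhl5*, *Myoz1*, *Myoz3*, and *Actn3* had at most 19 counts in any mouse and were not tested. By edgeR 0 of the 14 passed the threshold, where 5 had an unadjusted p under 0.05, all higher, against 5.77% of all genes in that direction. DESeq2 and edgeR's exact test each called 1, *Pdlim4*, against 0.918% and 0.813% of all genes by these tests. The fold changes were above 0 for 13 and below 0 for 1, with a median of 0.28 on the log2 scale, beside 48.6% below 0 over all genes. The macrophage markers, higher without overlap for 6 of 6 genes, moved in the same direction, and their part in this list was not tested. The median was 0.17 with library size only (11 higher), 0.18 after the length correction or without *Lztr1* R409C/+ replicate 3, and 0.43 without WT replicate 3. It was 0.42 without a filter, with 17 tested. For 5 genes every *Lztr1* R409C/+ mouse was higher, against 8.3% of all genes. They were *Pdlim4*, *Pdlim7*, *Csrp1*, *Pdlim2*, and *Ankrd2*, with at most 30.5 CPM in any mouse. The most abundant relative, *Pdlim5*, was the gene below 0, with means of 498.7 CPM in WT and 457.3 CPM in R409C/+ LVs. *Ankrd23* was next, at 303.4 and 334.9 CPM, and both overlapped. *Pdlim4*, which encodes a PDZ and LIM protein, had 7.17, 5.44, and 5.25 CPM in WT LVs and 9.47, 11.02, and 12.7 CPM in R409C/+ LVs, a log2 fold change of 0.89 (standard error 0.20, edgeR, adjusted p = 0.215). DESeq2 gave it an adjusted p of 0.0157, and the exact test of edgeR 0.0238. *Pdlim7*, which encodes Enigma, had means of 12.5 ± 3.78 and 21.5 ± 5.43 CPM (SD, n = 3 in each group) and a log2 fold change of 0.79 (standard error 0.25, edgeR, adjusted p = 0.398). *Csrp1*, the relative of *Csrp3* in smooth muscle and other tissues, had 21.1 ± 2.08 and 28.5 ± 1.92 CPM (SD, n = 3 in each group) and a log2 fold change of 0.43 (standard error 0.15, edgeR, adjusted p = 0.470), which was 0.29 with library size only and 0.28 after the length correction. The highest point of this list in the plot of lists is *Ankrd2*, named after its values were seen, which had at most 0.420 CPM in any mouse and 0 counts in WT replicate 2.

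Of 29 tested genes for other structural proteins and partners of the Z-disc, 25 were lower and 4 higher in *Lztr1* R409C/+ mice, with a median log2 fold change of -0.19, beside 48.6% lower over all genes. The cardiomyocyte markers were lower for 6 of 9 genes, with sums of 42721 CPM to 46061 CPM in WT and 31675 CPM to 45200 CPM in *Lztr1* R409C/+ mice, the lowest in *Lztr1* R409C/+ replicate 1, and the macrophage markers were higher. Without that mouse 23 of the 29 were lower, with a median of -0.18, and after the length correction 26, with a median of -0.17. The part of the markers in this list and in the stretch list was not tested. By edgeR 0 of the 29 passed the threshold, and 3 had an unadjusted p under 0.05, all lower, against 2.86% of all genes in that direction. DESeq2 and edgeR's exact test also called 0. For 6 genes every *Lztr1* R409C/+ mouse was lower, against 7.23% of all genes. The number of lower genes among the 29 stayed between 22 and 27 over the 17 alternatives, and the median was -0.32 with library size only. *Trim63*, which encodes the muscle ubiquitin ligase MuRF1, had 143.8, 127.9, and 176.3 CPM in WT LVs and 88.4, 104.1, and 114.9 CPM in R409C/+ LVs without overlap, for a log2 fold change of -0.54 (standard error 0.17, edgeR, unadjusted p = 0.00886 and adjusted p = 0.410), and -0.31 without both WT replicate 3 and *Lztr1* R409C/+ replicate 1. *Sorbs2*, which encodes an adaptor of the Z-disc and intercalated disc, had 355.1 ± 39.0 and 257.9 ± 38.3 CPM (SD, n = 3 in each group), also without overlap, and a log2 fold change of -0.46 (standard error 0.17, edgeR, adjusted p = 0.495). *Myot*, which encodes the actin cross-linker myotilin, had 31.1 ± 8.05 and 22.1 ± 4.06 CPM (SD, n = 3 in each group) with overlap and a log2 fold change of -0.49 (standard error 0.21, edgeR, adjusted p = 0.554), which was -0.31 without WT replicate 2.

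Of 16 genes of the stretch and hypertrophy response, all of them tested, 12 were lower and 4 higher, beside 48.6% lower over all genes, with a median log2 fold change of -0.20. Those higher were *Nppa* (0.53), *Tnc* (0.41), *Hspb7* (0.29), and *Ccn1* (0.027), all with overlap. *Spp1* and *Timp1*, both lower, and *Tnc* had at most 0.363, 1.30, and 1.71 CPM in any mouse. The median was -0.37 with library size only and -0.12, with 9 lower, without both WT replicate 3 and *Lztr1* R409C/+ replicate 1. By edgeR 0 passed the threshold and 1 had an unadjusted p under 0.05, *Acta1*, in the lower direction, against 2.86% of all genes. For 2 genes, *Amotl2* and *Tead1*, every *Lztr1* R409C/+ mouse was lower, against 7.23% of all genes. DESeq2 and edgeR's exact test called 0. *Acta1*, skeletal α-actin, a gene of the fetal program that often returns in hypertrophy, had 182.9, 315.1, and 316.9 CPM in WT LVs and 181.3, 165.4, and 198.4 CPM in R409C/+ LVs. The groups overlapped through WT replicate 1, and the log2 fold change was -0.58 (standard error 0.21, edgeR, unadjusted p = 0.0172 and adjusted p = 0.483). *Amotl2* and *Ccn2*, targets of the stretch-responsive coactivator YAP like *Ankrd1*, had log2 fold changes of -0.33 ± 0.16 and -0.41 ± 0.20 (± standard error), and both had an adjusted p of 0.599 by edgeR. *Ankrd1* itself was at -0.0063 and *Ccn1* at 0.027, each with overlap. *Amotl2* was lower in every *Lztr1* R409C/+ mouse, at 50.2 ± 5.73 CPM against 63.0 ± 8.13 CPM in WT (SD, n = 3 in each group), and *Ccn2* overlapped. *Ccn2* was at -0.61 without *Lztr1* R409C/+ replicate 2 and at -0.25 without both WT replicate 3 and *Lztr1* R409C/+ replicate 1.

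**Figure D4:**
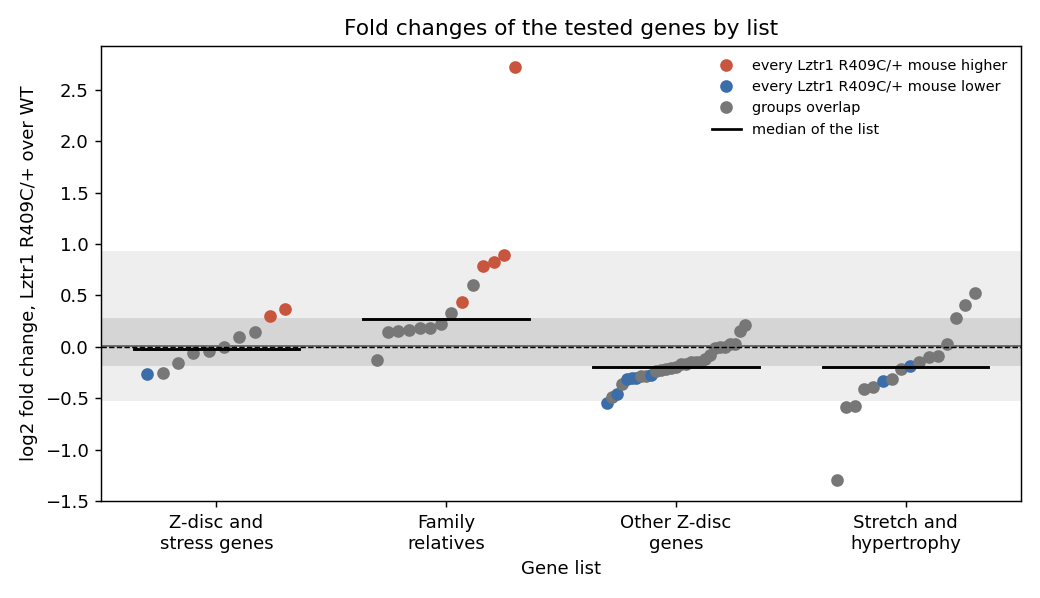
Log2 fold change of Lztr1 R409C/+ over WT mice for the tested genes of 4 lists (points, coloured where the genotypes did not overlap), with a line at the median of each list and grey bands for the middle 50% and 90% of all 17212 genes. The medians are -0.022 for the 10 Z-disc and stress genes, 0.28 for their relatives, -0.19 for other Z-disc genes, and -0.20 for stretch and hypertrophy genes.

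The genes whose pattern over the 6 mice came closest to that of *Ankrd1* were *Triap1*, *Tsr1*, *Macir*, *Nkiras1*, and *Atxn3*, with root mean square differences of 0.034, 0.044, 0.050, 0.052, and 0.059 on the log2 scale after each gene's mean was subtracted. All 5 were highest in WT replicate 3 and lowest in WT replicate 2, as was *Ankrd1*, and none belonged to the lists used here. Of the 10 genes, *Xirp2* came closest to *Ankrd1*, at 0.19, and *Xirp1* was farthest, at 0.63.

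**Figure D5:**
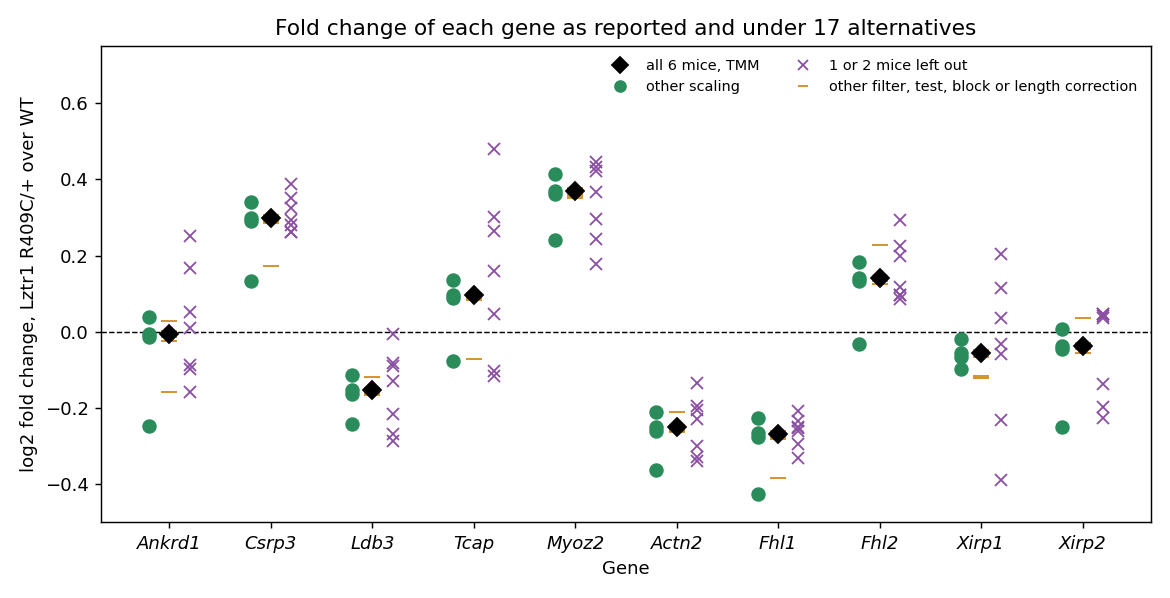
Log2 fold change of Lztr1 R409C/+ over WT mice for each of the 10 genes as reported (diamonds) and under 17 alternatives, grouped as other scalings, fits with 1 or 2 mice left out, and other filters, tests, a replicate block or a length correction. Csrp3 and Myoz2 stay above 0 and Ldb3, Actn2, and Fhl1 below 0 throughout, and the other 5 genes cross 0.

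Across 17 alternatives of scaling, filter, test, and mice, *Csrp3* stayed between 0.13 and 0.39, *Myoz2* between 0.18 and 0.45, *Fhl1* between -0.43 and -0.21, *Actn2* between -0.36 and -0.14, and *Ldb3* between -0.29 and -0.0062 on the log2 scale. The other 5 genes changed direction under at least 1 alternative. None of the 10 passed the threshold under any of them, with 0.425 as the smallest adjusted p, for *Csrp3* by edgeR without WT replicate 3 and *Lztr1* R409C/+ replicate 1.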

How the data were processed

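RNA from the LVs of 3 WT and 3 *Lztr1* R409C/+ mice was sequenced, 1 library per mouse. Per the labels and the methods, the authors trimmed reads with Trim Galore, aligned them with HISAT2 to GRCm39, excluded rRNA, and used StringTie and edgeR. Versions, the annotation release, strand, and the step from StringTie to counts are not given in the sources used here. The deposited counts per gene are whole numbers without normalization. The deposited table of the authors' edgeR comparison (fold changes and p-values) served for gene names only. The 10 genes and all lists were chosen with earlier results of these data known.

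The analysis used edgeR 4.0.16 under R 4.3.3 (filterByExpr, TMM, robust quasi-likelihood test, Benjamini-Hochberg adjustment, threshold 0.05, two-sided). The common biological coefficient of variation was 26.1%, and TMM factors ran from 0.800 to 1.39. Intervals of 95% use the standard error and the moderated degrees of freedom. At this depth 3 counts correspond to at most 0.0541 CPM, which covers counting error only. Lengths and positions are from GENCODE M39 on GRCm39, which held 56236 of 56923 identifiers. Named from the lists were the 3 tested genes of each with the smallest unadjusted p, the 5 genes nearest to *Ankrd1*, and *Lztr1*. *C1qb*, *Ankrd2*, *Ankrd23*, *Pdlim2*, *Pdlim5*, *Tead1*, *Ccn1*, *Nppa*, *Tnc*, *Hspb7*, *Spp1*, and *Timp1* were named after their values were seen. Single values were compared by an exact permutation test of log2 CPM (0.01 CPM added). Alternatives were other scalings, filters, and tests (DESeq2 1.42.0, edgeR's exact test), a replicate block, a loess correction for gene length, other thresholds, the omission of each mouse, and, chosen after the data were seen, of the 2 mice with the extreme mitochondrial shares.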

Additional observations from a re-analysis of the deposited data

How the results depend on the processing

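Library size alone moved the median log2 fold change of all genes from 0.012 to -0.14, and changes under it are to be read against that shift. The genes past the threshold, 6 higher and 1 lower as reported, were 15 and 6 with library size only, 143 and 15 with DESeq2, and 127 and 13 with edgeR's exact test. They were 19 higher without a filter, 1 higher after the length correction, 15 higher at a false discovery rate of 0.1, and 993 and 493 at an unadjusted p under 0.05. None were lower with at least 10 counts in every mouse (0), and 0 were higher without the 2 mice with the extreme mitochondrial shares. With each mouse left out in turn, 1 to 3 were higher and 1 to 2 lower.

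The median of the 10 genes was -0.17 with library size only, 0.024 with upper quartile scaling, and 0.10 without those 2 mice, and ran from -0.10 to 0.13 with each mouse left out. *Ankrd1* changed direction with upper quartile scaling (0.039), at least 10 counts in every mouse (0.0013), and without the 2 mice (0.17), and its difference of mean log2 CPM with library size only (-0.11). *Tcap* did so with library size only (-0.077, and -0.049 for the mean log2 CPM) and after the length correction (-0.073), *Fhl2* (-0.032) and *Lztr1* (-0.014) with library size only, *Xirp1* without the 2 mice (0.037), and *Xirp2* with upper quartile scaling (0.0081) and the length correction (0.036). With each mouse left out, the ranges were -0.16 to 0.25 for *Ankrd1*, -0.12 to 0.30 for *Tcap* (0.48 without the 2 mice), -0.39 to 0.20 for *Xirp1*, and -0.23 to 0.047 for *Xirp2*. The ratio of *Xirp2* to *Actn2* ran from -0.074 to 0.39 and that of *Csrp3* to *Tcap* from -0.011 to 0.42, each below 0 only without *Lztr1* R409C/+ replicate 1. The causes were not tested.

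The labels share replicate numbers between the genotypes and do not state whether these pair the mice. The deviations of same-numbered mice correlated at 0.0014, 0.012, and -0.050. Each value rests on a single mouse of each genotype, so it cannot decide whether the numbers pair the mice. With a replicate block, 0 genes were higher and 1 lower, and *Ankrd1* was at 0.028.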
